A study of Mus musculus with 42 samples.

Results

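The genes described here are the enzymes that cut and cross-link extracellular matrix in mouse visceral adipose tissue (VAT), together with the tissue inhibitors of the cutting enzymes. They were chosen by symbol alone: every gene named Mmp, Timp, Adamts, Adamtsl, Lox or Loxl with a number or letter of that series. The rule found 56 genes of 55011 in the count table, of which 23 encode matrix metalloproteinases (MMPs), 4 tissue inhibitors of metalloproteinases (TIMPs), 19 ADAMTS proteases, 5 ADAMTS-like proteins and 5 lysyl oxidases. RNA was sequenced in 42 libraries of 15 groups. VmSC4 and VmSC5, 2 numbered stromal cell populations of VAT from Pparg-Tdt mice, were sequenced fresh (3 libraries each) and after 8 days in adipogenic medium (3 each). Stromal cells were also recovered after adoptive transfer into recipients that the labels call Kaeda mice: VmSC5 cells derived from transferred VmSC4 (3 libraries), VmSC4 cells derived from transferred VmSC4 (3) and VmSC5 cells derived from transferred VmSC5 (2). VmSC5 cultures in adipogenic differentiation were compared with Treg and without Treg (3 each), which the series text describes as medium conditioned by VAT regulatory T cells (Tregs), and with oncostatin M (OSM, an IL-6 family cytokine) at 10 ng/mL or with PBS (3 each). Floating adipocytes came from Pparg-Tdt:Foxp3-DTR+ and Pparg-Tdt:Foxp3-DTR- mice (2 libraries each), all given diphtheria toxin, which kills Foxp3-expressing Tregs where the receptor transgene is present. Tregs of epididymal VAT came from OSMf/f mice, titled knockout (KO), and OSM+/+ mice, titled wild type (WT; 3 each). The labels used here give no age and no Cre line, and whether the 3 libraries of a group came from separate animals or cultures is not stated.

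As background, MMPs are zinc proteases, secreted or anchored in the membrane, that are made as inactive precursors, and TIMPs bind their active sites. The ADAMTS family includes the enzymes that cut aggrecan and versican and those that remove the N-propeptide of fibrillar procollagen, a step before fibrils assemble. The ADAMTS-like proteins share the ancillary domains but not the protease domain. Lysyl oxidases oxidise lysines of collagen and elastin so that the fibres become cross-linked. In adipose tissue, Pdgfra-expressing stromal cells make most of the fibrillar matrix, and remodelling of that matrix accompanies both the formation and the enlargement of adipocytes.

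The start regions of 5 genes are shown because the culture results below turn on them: Timp1, Loxl4, Mmp3 and Mmp8 were higher in VmSC5 cultures with Treg, and Mmp28 was lower with Treg and with OSM. Each is the 300-base window from 250 bases before to 50 after the gene start in RefSeq, build GRCm38.p6, printed 5′ to 3′ on the gene's own strand. The windows lie at chrX:20869916-20870215 (Timp1, plus strand), chr19:42612757-42613056 (Loxl4, minus strand), chr9:7445572-7445871 (Mmp3, plus strand), chr9:7558179-7558478 (Mmp8, plus strand) and chr11:83462991-83463290 (Mmp28, minus strand). Capitals mark matches, on either strand, to 4 motifs. The AP-1 site was searched as TGANTCA. A variant of the AP-1 site was searched as TGAGTAA. The STAT site was searched as TTCNNNGAA. The TATA box was searched as TATAAA.
Timp1: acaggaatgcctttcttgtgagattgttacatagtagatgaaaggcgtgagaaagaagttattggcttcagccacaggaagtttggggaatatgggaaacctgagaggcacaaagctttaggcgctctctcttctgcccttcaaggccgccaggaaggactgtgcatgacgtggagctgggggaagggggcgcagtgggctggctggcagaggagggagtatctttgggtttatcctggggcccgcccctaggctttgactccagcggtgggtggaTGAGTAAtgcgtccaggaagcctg
Loxl4: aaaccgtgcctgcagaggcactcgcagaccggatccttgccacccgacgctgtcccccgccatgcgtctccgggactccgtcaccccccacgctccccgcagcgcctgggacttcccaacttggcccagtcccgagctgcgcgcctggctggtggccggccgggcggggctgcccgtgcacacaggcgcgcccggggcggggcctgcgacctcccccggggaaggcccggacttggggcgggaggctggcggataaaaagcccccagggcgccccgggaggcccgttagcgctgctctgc
Mmp3: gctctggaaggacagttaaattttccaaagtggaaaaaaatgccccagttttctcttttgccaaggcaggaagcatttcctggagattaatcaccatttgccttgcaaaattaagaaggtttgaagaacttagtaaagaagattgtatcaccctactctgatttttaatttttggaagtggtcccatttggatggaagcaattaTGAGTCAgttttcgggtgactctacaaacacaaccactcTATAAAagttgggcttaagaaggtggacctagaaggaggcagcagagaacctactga
Mmp8: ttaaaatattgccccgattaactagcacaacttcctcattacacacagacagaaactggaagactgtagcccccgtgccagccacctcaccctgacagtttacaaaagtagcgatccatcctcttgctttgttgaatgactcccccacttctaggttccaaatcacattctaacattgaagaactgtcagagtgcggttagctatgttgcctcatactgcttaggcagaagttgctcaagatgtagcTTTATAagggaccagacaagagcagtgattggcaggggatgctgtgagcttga
Mmp28: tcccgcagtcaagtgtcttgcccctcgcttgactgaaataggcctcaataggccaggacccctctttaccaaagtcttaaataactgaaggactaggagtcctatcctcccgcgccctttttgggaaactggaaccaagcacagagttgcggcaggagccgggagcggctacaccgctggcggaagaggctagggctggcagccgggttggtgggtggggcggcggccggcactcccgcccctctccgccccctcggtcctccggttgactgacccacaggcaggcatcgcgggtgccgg
The Timp1 window held the AP-1 variant, the Mmp3 window held an AP-1 site ahead of a TATA box, and the Mmp8 window held a TATA box on the opposite strand. None of the 4 motifs was found in the Loxl4 and Mmp28 windows. RefSeq start regions were matched for 37 of the 56 genes, and a gene was counted where any of its listed start regions held the motif. TGANTCA was in 8 of these 37 (21.6%), against 8.97% of all 27025 genes in the table. The 8 were Mmp1a, Mmp1b, Mmp3, Mmp7, Mmp10, Mmp12, Mmp13 and Mmp20, all of chromosome 9. Mmp3 was the one of these 8 tested in both cultures, and Mmp12 was tested with Treg, while the other 6 were too rare to test. Among family genes with a start region, TGANTCA was in 1 of 9 higher with OSM (11.1%) and 1 of 12 higher with Treg (8.33%). TATAAA was in 12 of the 37 (32.4%), against 15.7% of all genes. TTCNNNGAA was in 1 of the 37, Mmp23, against 9.55% of all genes, and TGAGTAA in 1 of the 37, Timp1, against 3.09% of all genes. A match is a description of the letters and not evidence of binding.

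Library totals ran between 1072147 and 12514783 counts, and were highest in fresh stromal cells (8527769 to 12514783) and lowest in the OSM and PBS cultures (1072147 to 2078534). The group labels were checked against defining transcripts. Adipoq, the adipokine adiponectin, averaged 9387 counts-per-million (CPM) in DTR+ and 6316 CPM in DTR- floating adipocytes, 5131 CPM in adipogenic VmSC5 and 5263 CPM in adipogenic VmSC4, but 0.541 CPM in fresh VmSC5 and 0.916 CPM in fresh VmSC4. Foxp3 averaged 276 CPM in KO and 314 CPM in WT Tregs. Osm itself had 9.83, 14.6 and 7.76 CPM in the KO Tregs, against 29.1, 28.4 and 34.1 CPM in the WT Tregs. The 3 KO libraries were below all 3 WT libraries, with a log2 difference of -1.51 (SE 0.35) whose adjusted p of 0.271 (edgeR) missed the threshold.

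Of the 56 genes, 42 reached a mean of 5 CPM in at least 1 group. The other 14 never did: the collagenases Mmp1a, Mmp1b and Mmp13, then Mmp7, Mmp10, Mmp20, Mmp21, Mmp24, Adamts8, Adamts13, Adamts17, Adamts18, Adamts19 and Adamts20. Genes at or above 5 CPM numbered 34 in each group of transferred cells, 29 in fresh VmSC5, 30 in fresh VmSC4, and 24 in both adipogenic groups. They numbered 31 with OSM and 29 with PBS, 30 with Treg and 28 without, 15 in DTR+ and 20 in DTR- adipocytes, and 8 in KO and 7 in WT Tregs. The summed level of all 56 genes was 14938 ± 456 CPM with OSM and 6035 ± 227 CPM with PBS, 5256 ± 405 CPM with Treg and 2921 ± 257 CPM without (SD, n = 3 each). It was 1409 ± 23.2 CPM in adipogenic and 9788 ± 544 CPM in fresh VmSC5, and 1477 ± 120.2 CPM in adipogenic and 8641 ± 317 CPM in fresh VmSC4 (SD, n = 3 each). It was 647 ± 245 CPM in DTR+ and 2045 ± 497 CPM in DTR- adipocytes (SD, n = 2 each), and 743 ± 68.4 CPM in KO and 743 ± 55.1 CPM in WT Tregs (SD, n = 3 each).

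**Figure D1:**
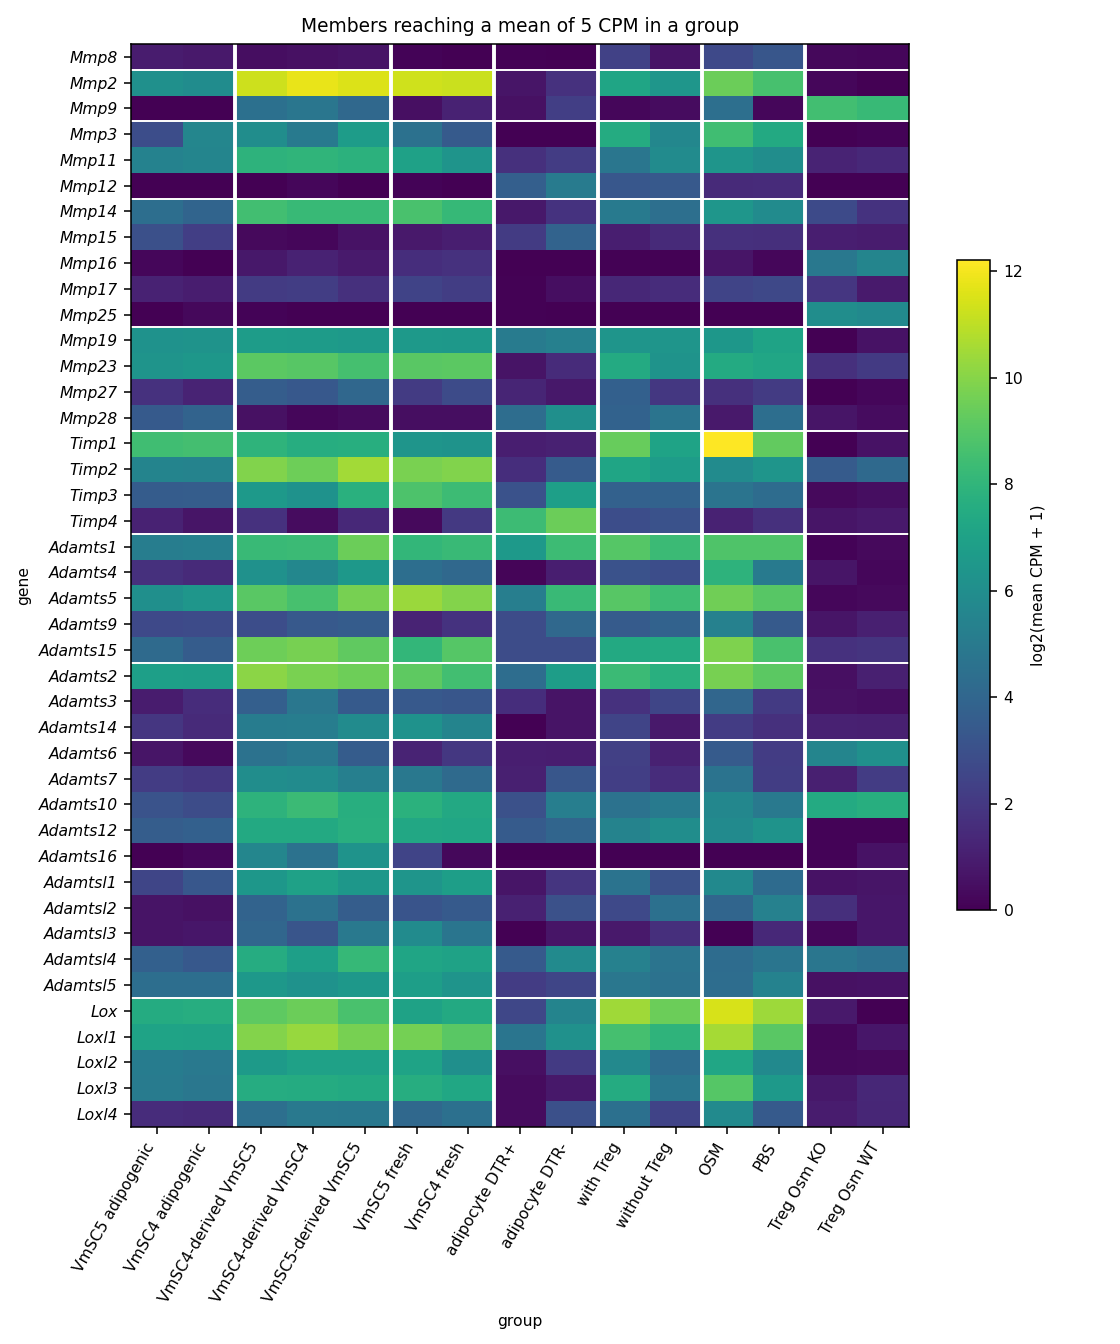
Mean level of the 42 genes that reached 5 CPM in at least 1 group (one per row, ordered by role), in each of the 15 groups (columns), as log2(mean CPM + 1). Mmp2, Timp2 and Adamts5 are bright in fresh and transferred stromal cells, Timp1 and Lox in the VmSC5 cultures, Timp4 in floating adipocytes and Mmp9 in Tregs.

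Different genes led the family in each kind of cell when levels were expressed per kilobase of exon. In fresh stromal cells the leading gene was Mmp2 (chr8:92827291-92853420, mm10, plus strand), the gelatinase that cuts denatured collagen and basement membrane collagen IV, at 761 ± 109 CPM per kb in VmSC5 and 706 ± 64.1 CPM per kb in VmSC4 (SD, n = 3 each). Mmp2 also led in transferred cells, at 744 ± 261 CPM per kb in VmSC4-derived VmSC5 (SD, n = 3), 1063 ± 47.3 CPM per kb in VmSC4-derived VmSC4 (SD, n = 3) and 890.2 ± 377 CPM per kb in VmSC5-derived VmSC5 (SD, n = 2). In the culture groups the leading gene was Timp1 (chrX:20870166-20874735, mm10, plus strand), a secreted inhibitor of most MMPs. Per kilobase, Timp1 stood at 5308 ± 359 CPM with OSM and 696 ± 70.9 CPM with PBS, and at 753 ± 46.7 CPM with Treg and 151 ± 10.8 CPM without (SD, n = 3 each). Without Treg, Lox stood level with it at 149 ± 22.9 CPM per kb. In floating adipocytes the leading gene was Timp4 (chr6:115241892-115252205, mm10, minus strand), an inhibitor known for its adipose and cardiac expression, at 56.1 ± 12.5 CPM per kb in DTR+ and 121 ± 9.73 CPM per kb in DTR- (SD, n = 2 each). In Tregs it was the gelatinase Mmp9, at 103 ± 21.8 CPM per kb in KO and 85.3 ± 15.6 CPM per kb in WT (SD, n = 3 each). Levels of groups that entered no comparison with each other stand side by side with no test.

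Most of the genes that could be measured were higher in VmSC5 cultures with OSM. Of the 30 that could be tested, 21 were higher and 5 lower with OSM than with PBS (86.7% called, against 45.8% of all 9825 genes tested; edgeR quasi-likelihood test, adjusted p under 0.05). Their median log2 fold change was 0.84, against 0.00 over all genes. The genes that rose cover cross-linking, inhibition of MMPs and proteoglycan cutting: all 5 lysyl oxidases, Timp1, and 4 of 5 tested ADAMTS proteoglycanases. In these bulk samples, fewer cells of a type and less RNA per cell cannot be told apart.

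Timp1 had 4631, 4444 and 5065 CPM with OSM, against 578, 586 and 691 CPM with PBS. The groups were far apart, and the log2 fold change was 3.04 (SE 0.09, adjusted p = 1.67e-32). Timp2, which also takes part in MMP2 activation, had 57.0, 68.1 and 51.2 CPM with OSM, against 84.2, 88.0 and 75.9 CPM with PBS. It was lower by a small margin without overlap (log2 fold change -0.41, SE 0.15, adjusted p = 0.0218), a call that DESeq2 did not make (adjusted p = 0.142). Timp3, the inhibitor that binds to matrix, had 28.1, 20.5 and 25.6 CPM with OSM and 23.2, 20.7 and 11.9 CPM with PBS, overlapping ranges with an adjusted p of 0.123.

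Lox, the founding lysyl oxidase, had 3394, 2778 and 2375 CPM with OSM, against 1211, 1415 and 1442 CPM with PBS. Every OSM library lay above every PBS library (log2 fold change 1.17, SE 0.11, adjusted p = 2.34e-08). Loxl1, which is required for elastic fibre maintenance, had 1578, 1439 and 1569.7 CPM with OSM, against 517, 527 and 554 CPM with PBS (log2 fold change 1.63, SE 0.08, adjusted p = 5.67e-23). Loxl3 (chr6:83034173-83052562, mm10, plus strand) had 461, 515 and 557 CPM with OSM, against 80.4, 107 and 104 CPM with PBS. Loxl4 (chr19:42593982-42612813, mm10, minus strand) was less abundant, with 68.2, 52.2 and 48.6 CPM with OSM, against 7.73, 13 and 9.38 CPM with PBS. These changes were larger than that of Lox, at log2 fold changes of 2.49 (SE 0.10, adjusted p = 2.54e-25) for Loxl3 and 2.52 (SE 0.25, adjusted p = 2.12e-12) for Loxl4. Loxl2, a collagen IV cross-linking enzyme, was higher by 1.56 on the log2 scale (SE 0.14, adjusted p = 1.67e-13).

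Among the proteoglycanases, Adamts4 (aggrecanase-1; chr1:171250421-171260637, mm10) moved most, with 219.9, 260.2 and 234 CPM with OSM, against 25.5, 32.2 and 33.2 CPM with PBS. The log2 fold change was 3.06 (SE 0.14, adjusted p = 2.01e-24). The related aggrecanase Adamts5 (chr16:85856173-85901828, mm10) was already abundant, at 737, 846 and 671 CPM with OSM and 552, 516 and 527 CPM with PBS. It was higher without overlap by 0.60 on the log2 scale (SE 0.08, adjusted p = 3.96e-08). Adamts9 rose by 2.12 (SE 0.28, adjusted p = 1.43e-08) and Adamts15 by 1.25 (SE 0.09, adjusted p = 2.73e-17), whereas Adamts1 stood at 464 ± 34.8 CPM with OSM and 462 ± 36.7 CPM with PBS (SD, n = 3 each; adjusted p = 0.322). The procollagen N-proteinases Adamts2 and Adamts3 were higher by 0.71 (SE 0.09) and 2.39 (SE 0.42), and Adamts7, which cuts cartilage oligomeric matrix protein, by 2.7 (SE 0.37, adjusted p = 2.51e-08). Adamts6 was also higher (log2 fold change 1.62, SE 0.47, adjusted p = 0.00408), a call DESeq2 did not make (adjusted p = 0.0721).

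Among the MMPs, Mmp3 (stromelysin-1, which cuts many matrix proteins and activates other MMPs; chr9:7445822-7455975, mm10) had 339, 341 and 383 CPM with OSM, against 162, 178 and 176 CPM with PBS. The groups did not overlap (log2 fold change 1.15, SE 0.10, adjusted p = 1.26e-14). Mmp2 had 660.4, 709 and 725 CPM with OSM, against 371, 386 and 447 CPM with PBS, also apart (log2 fold change 0.91, SE 0.08, adjusted p = 6.51e-13). Mmp14, the membrane-anchored activator of MMP2, had 104, 82.1 and 69.0 CPM with OSM and 52.5, 47.1 and 74.2 CPM with PBS. The call was made although the ranges overlapped in 1 library of each group (log2 fold change 0.68, SE 0.17, adjusted p = 0.000864).

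Mmp28 (epilysin; chr11:83440768-83463071, mm10, minus strand) was among the genes that fell, with 2.41, 0 and 0 CPM with OSM, against 27.0, 17.3 and 16.2 CPM with PBS. With 3 counts over the OSM libraries and 90 over the PBS libraries, the pooled level was 25.3-fold lower with OSM (95% counting interval 8.4 to 125; adjusted p = 1.95e-08). The other genes that fell were Mmp19, Timp2, Adamtsl2 and Adamtsl5, of which Adamtsl2, a fibrillin-binding protein, had the largest log2 fold change (-1.27, SE 0.24, adjusted p = 2.01e-05). Mmp9 did not pass the filter on low counts in the fit of OSM against PBS and has no test there. It had 35, 7 and 43 counts in the OSM libraries, against 0, 1 and 0 in the PBS libraries, a pooled ratio of 101 (95% counting interval 17.6 to 4020.1).

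Genes of the same system outside the family moved in the same cultures, in which 45.8% of all genes tested were called. Of 7 tested genes of the plasminogen system, which activates several MMPs, 5 were higher and 2 lower with OSM, with Serpine2, a protease inhibitor, among the lower (log2 fold change -1.79, SE 0.10). Of 10 tested genes of procollagen processing and MMP activation, 6 were higher and 3 lower, led by Bmp1, the procollagen C-proteinase that also activates pro-LOX (log2 fold change 2.76, SE 0.09, adjusted p = 1.38e-30), and Efemp2, an elastic fibre protein that binds LOX (2.03, SE 0.09). Of 9 tested genes of the OSM receptor and its feedback, 7 were higher and none lower, with Socs3, a feedback inhibitor, at a log2 fold change of 4.63 (SE 0.12) and Osmr, the receptor subunit, at 2.67 (SE 0.09). Of 9 tested AP-1 and ETS factors, 4 were higher, among them Junb by 2.79 (SE 0.12) and Fosl2 by 2.78 (SE 0.13). The 1 that was lower was Fos (-0.73, SE 0.23).

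Cell type markers shifted along with these results. All 5 tested adipocyte genes fell with OSM, and Adipoq averaged 2.12 CPM with OSM and 271 CPM with PBS. The summed level of 6 stromal markers, all detected in both groups, was 47739 to 57893 CPM with OSM and 10745 to 11128 CPM with PBS, and 5 of 6 rose. All 4 tested endothelial markers and 3 of 4 tested pericyte markers also rose, at summed levels of 128 to 173 CPM (endothelial) and 61.0 to 82.1 CPM (pericyte) with OSM, against 25.6 to 34.2 CPM and 23.2 to 33.2 CPM with PBS. Of 5 tested mesothelial markers, 4 fell and 1 rose. The mitochondrial share of counts was 1.53 to 1.64% with OSM and 2.40 to 2.92% with PBS. The part these shifts play in the results above was not tested.

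**Figure D2:**
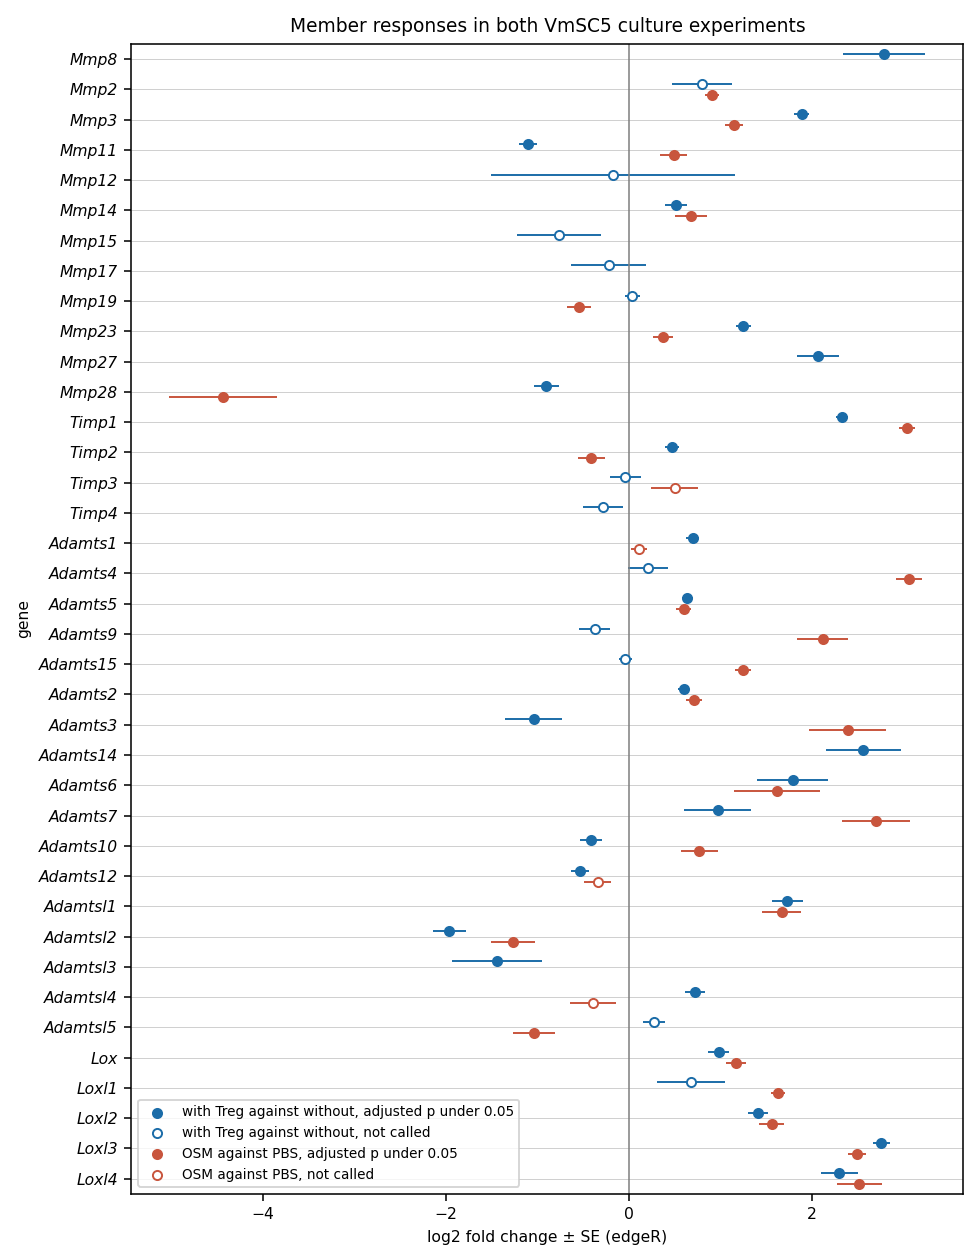
Log2 fold change (± SE, edgeR) of each tested gene in VmSC5 cultures with OSM over PBS and with Treg over without Treg, ordered by role; filled points passed an adjusted p of 0.05. Timp1, Loxl3 and Loxl4 lie above 2 in both comparisons, Adamts4 is far right with OSM (3.06) and near 0 with Treg (0.21), and Mmp28 lies left of 0 in both.

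In the Treg experiment, 19 of 38 tested genes were higher and 7 lower with Treg than without (68.4% called, against 43.4% of all 12356 genes tested), and the median log2 fold change was 0.56, against 0.00 over all genes. Timp1 and 4 of 5 lysyl oxidases rose again. T cell transcripts were near 0 in both groups, where the summed level of 7 T cell markers was 3.06 to 4.29 CPM with Treg and 3.65 to 4.09 CPM without.

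Timp1 had 695, 621 and 689.9 CPM with Treg, against 125, 133 and 144 CPM without. The separation was complete, with a log2 fold change of 2.33 (SE 0.07, adjusted p = 9.61e-27). Timp2 was higher by 0.47 (SE 0.08, adjusted p = 1.84e-05), whereas Timp3 at 12.8 ± 1.96 CPM with Treg and 13.3 ± 1.73 CPM without, and Timp4 at 6.28 ± 0.775 CPM with Treg and 7.54 ± 1.88 CPM without, did not pass (SD, n = 3 each).

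Loxl3 had 190.5, 173 and 171 CPM with Treg, against 23.4, 26.1 and 30.5 CPM without, the largest change among genes over 5 CPM (log2 fold change 2.76, SE 0.09, adjusted p = 4.01e-25). Loxl4 had 22.2, 23.4 and 18.7 CPM with Treg, against 5.91, 3.22 and 4.09 CPM without (2.30, SE 0.20, adjusted p = 2.83e-12). Lox itself had 1460.5, 1442 and 1266 CPM with Treg, against 645, 653 and 838 CPM without, again with no overlap (0.98, SE 0.11, adjusted p = 0.000258). Loxl2 rose by 1.41 (SE 0.11). Loxl1 had 497, 464 and 212 CPM with Treg and 247, 223 and 269 CPM without. The third Treg library fell below all libraries without Treg, and the comparison did not pass (log2 fold change 0.68, SE 0.37, adjusted p = 0.23).

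Mmp3 had 193, 171 and 176 CPM with Treg, against 48.1, 46.9 and 52.7 CPM without. This was a larger change than any other MMP above 50 CPM (log2 fold change 1.89, SE 0.08, adjusted p = 9.75e-22). Mmp8, the neutrophil collagenase, was rare, with 4.03, 3.89 and 4.59 CPM with Treg, against 1.22, 0.307 and 0.215 CPM without, but the groups were separate (2.79, SE 0.45, adjusted p = 2.86e-06). Mmp13, interstitial collagenase of rodents, was not tested, with 4, 31 and 2 counts in the Treg libraries and 0, 1 and 0 in those without, so that a single Treg library held most of its counts. Mmp27 rose by 2.07 (SE 0.23), Mmp23 by 1.25 (SE 0.08) and Mmp14 by 0.52 (SE 0.12, adjusted p = 0.000531). Mmp2 had 180.4, 167 and 88.4 CPM with Treg and 87.7, 73.0 and 93.8 CPM without. The third Treg library, which was also low in Loxl1, lay within the Mmp2 range without Treg, and Mmp2 did not pass (0.80, SE 0.33, adjusted p = 0.131). Mmp11, stromelysin-3, had 29.2, 23.2 and 27.1 CPM with Treg, against 60.6, 52.8 and 58.9 CPM without, and fell (-1.10, SE 0.10, adjusted p = 3.77e-11).

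Of 5 tested proteoglycanases, Adamts1 and Adamts5 were higher (0.70, SE 0.07, and 0.64, SE 0.06), while Adamts4 had 7.06, 8.90 and 6.27 CPM with Treg and 5.73, 6.75 and 6.88 CPM without, overlapping ranges (0.21, SE 0.22, adjusted p = 0.469). Adamts15 averaged 167 ± 21 CPM with Treg and 173 ± 3.49 CPM without (SD, n = 3 each; adjusted p = 0.735). The procollagen N-proteinases split: Adamts14 was higher by 2.56 (SE 0.41) at 4.58 ± 1.17 CPM with Treg, Adamts2 was higher by 0.60 (SE 0.06), and Adamts3 was lower (-1.04, SE 0.31, adjusted p = 0.00631). Of the ADAMTS-like genes, Adamtsl1 and Adamtsl4 rose by 1.73 (SE 0.17) and 0.72 (SE 0.11), and Adamtsl2 and Adamtsl3 fell (-1.96, SE 0.18, and -1.44, SE 0.49).

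In the Treg experiment 43.4% of all genes tested were called. Around the family, 6 of 7 tested plasminogen system genes were higher with Treg and none lower, among them Plau (urokinase; 1.2, SE 0.12) and its receptor Plaur (1.45, SE 0.21). Of the OSM receptor and feedback list, 8 of 9 were higher and 1 lower, Socs3 by 2.41 (SE 0.12) and Osmr by 1.27 (SE 0.08). Of the AP-1 and ETS factors, 8 of 9 were higher and 1 lower, Ets1 by 1.55 (SE 0.12) and Jun by 1.25 (SE 0.10). Adipocyte genes fell in 6 of 7 tested, with Adipoq at 1386 ± 93.0 CPM with Treg and 3489 ± 165 CPM without (SD, n = 3 each). The 6 stromal markers summed to 10729 to 12508 CPM with Treg and 4040.5 to 4704 CPM without, and the 6 mesothelial markers to 38.8 to 63.5 CPM with Treg and 20.6 to 22.8 CPM without. The 8 macrophage markers summed to 121 to 139 CPM with Treg and 84.3 to 99.6 CPM without (3 of 8 tested higher), and the 5 pericyte markers to 36.8 to 39.4 CPM with Treg and 73.8 to 76.1 CPM without (1 of 2 tested lower). The mitochondrial share of counts was 1.78 to 2.03% with Treg and 4.13 to 4.42% without. The part of these shifts was not tested.

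**Figure D3:**
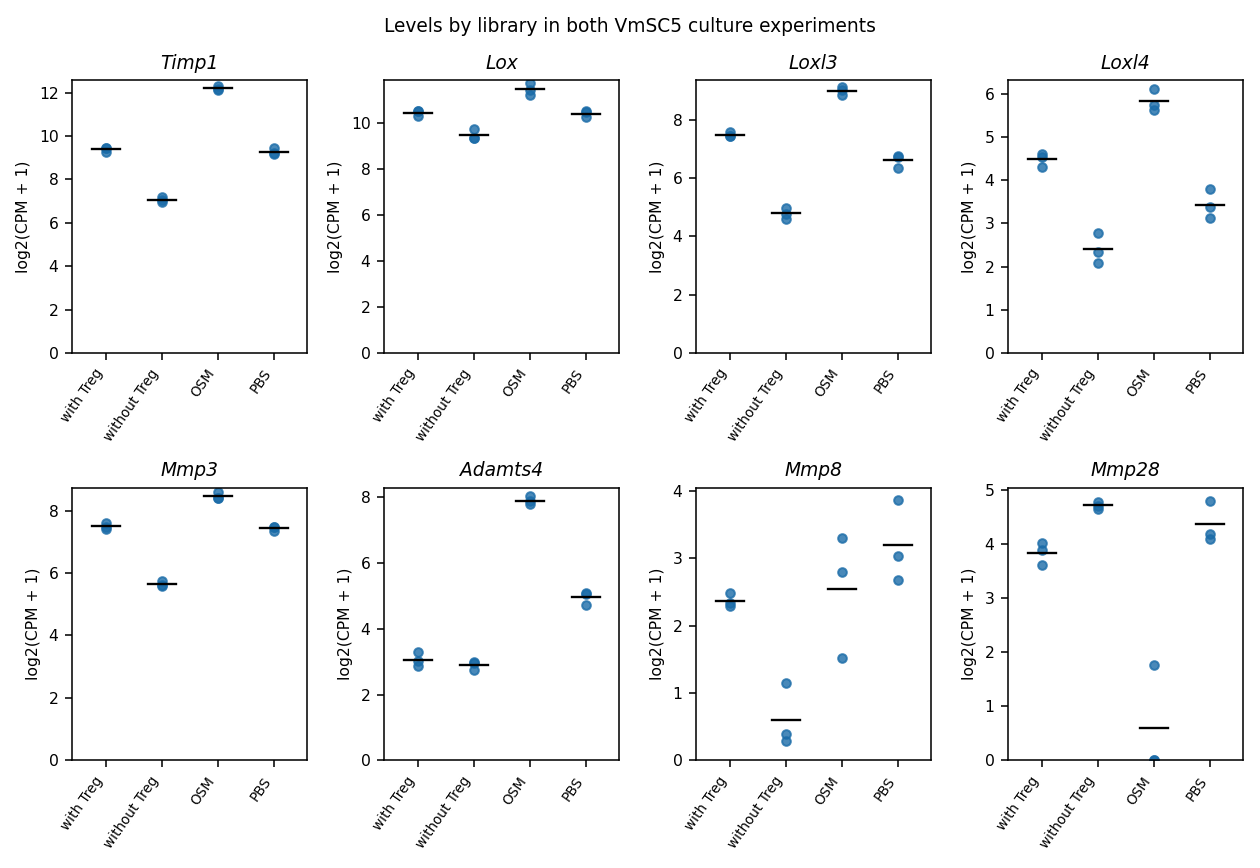
Level, as log2(CPM + 1), of 8 genes in each library of the cultures with and without Treg and with OSM or PBS; points are libraries and bars are means on that scale. Timp1, Lox, Loxl3, Loxl4 and Mmp3 sit higher in the OSM and Treg libraries than in their own controls, Adamts4 does so in the OSM libraries and overlaps in the Treg experiment, and Mmp28 lies lowest in the OSM libraries.

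The OSM and Treg experiments share no library, so their calls can be set against each other. Of 30 genes tested in both, 13 were higher in both: Mmp3, Mmp14, Mmp23, Timp1, Adamts2, Adamts5, Adamts6, Adamts7, Adamtsl1, Lox, Loxl2, Loxl3 and Loxl4. They made up 81.2% of the 16 that were higher with Treg and 61.9% of the 21 that were higher with OSM. Of these 30 genes, 70% were higher with OSM and 53.3% with Treg in any case. Over all 9733 genes tested in both, 22.2% were higher with OSM and 23.6% with Treg, and the genes higher in both made up 47.3% of those higher with Treg and 50.2% of those higher with OSM. Whether the overlap within the family exceeds what its high share of calls gives was not tested. Mmp28 and Adamtsl2 were lower in both, and Mmp11, Timp2, Adamts3 and Adamts10 were called in opposite directions. The difference between the responses, OSM over PBS minus with over without Treg, was tested for 37 genes and passed for 19 (32.5% of all genes tested passed). Of these 19, 9 responded more positively to OSM, including Adamts3 (3.48), Adamts4 (2.89), Adamts9 (2.53), Adamts7 (1.79), Adamts15 (1.33) and Timp1 (0.75), all as log2 differences. The other 10 had the more positive change with Treg, including Mmp28 (-3.56), Mmp8 (-3.19), Mmp27 (-2.58), Timp2 (-0.84) and Mmp3 (-0.70). The lysyl oxidases did not pass in this test, with differences between -0.23 for Loxl3 (adjusted p = 0.225) and 0.99 for Loxl1 (adjusted p = 0.087). Without the third Treg library, which was low in Loxl1, the difference of Loxl1 passed (adjusted p = 1.55e-07). The 2 experiments also differ in their baselines, since Adipoq averaged 271 CPM with PBS and 3489 CPM without Treg, so dose, culture and treatment cannot be told apart in this difference.

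Exons of Lox, Loxl2, Loxl3, Timp3, Timp4, Mmp1b, Mmp7, Mmp11, Mmp12, Mmp19, Mmp24, Mmp28, Adamts4, Adamts7, Adamts8 and Adamts9 overlap exons of other genes on the opposite strand in the annotation. Whether reads were counted by strand is not given in the sources used here, so reads of these overlaps cannot be assigned to 1 gene with certainty.

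Most of the family was lower after adipogenic culture in both stromal populations. In VmSC5, 6 of 38 tested genes were higher and 27 lower after 8 days of adipogenic culture than fresh (86.8% called, against 71.0% of all genes tested; median log2 fold change -2.57, against -0.18 over all genes). In VmSC4, 7 were higher and 27 lower (89.5% called, against 70.4% of all genes; median -2.09, against -0.23). All 5 ADAMTS-like genes, all 3 procollagen N-proteinases and 4 of 5 lysyl oxidases were lower in both populations. The adipogenic libraries held 1841664 to 2606360 counts, 6.0537 to 7.2555% of them mitochondrial, against 8527769 to 12514783 counts and 0.0722 to 0.4227% in the fresh libraries.

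Mmp2 had 64.1, 77.9 and 65.2 CPM in adipogenic VmSC5, against 2323, 2383 and 2989 CPM in fresh VmSC5. The fall was -4.79 on the log2 scale (SE 0.15, adjusted p = 3.51e-20), and -4.76 (SE 0.15) in VmSC4. Mmp14, which activates MMP2 at the cell surface, fell with it (-3.96, SE 0.27 in VmSC5, and -3.85, SE 0.28 in VmSC4). Timp3 (chr10:86300372-86349506, mm10, plus strand) had 8.60, 12.9 and 10.7 CPM in adipogenic VmSC5, against 469.8, 499.6 and 354 CPM in fresh VmSC5 (-4.93, SE 0.21), and Timp2 fell as well (-3.82, SE 0.21). The changes in VmSC4 were -4.32 (SE 0.21) for Timp3 and -3.93 (SE 0.21) for Timp2.

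Adamts5 had 70.5, 69.7 and 62.0 CPM in adipogenic VmSC5, against 1427, 1489.6 and 1110.4 CPM in fresh VmSC5 (-3.88, SE 0.14, adjusted p = 4.93e-19). In VmSC4 it had 85.2, 85.2 and 78.7 CPM in adipogenic cells, against 910, 1078 and 961 CPM in fresh cells (-3.02, SE 0.13). Both populations ended near the same level although fresh VmSC5 had the more. Adamts15 showed the converse, at 17.5 ± 5.03 CPM in adipogenic and 267 ± 20.9 CPM in fresh VmSC5 (-3.49, SE 0.19), and 10.9 ± 1.55 CPM in adipogenic and 504 ± 118 CPM in fresh VmSC4 (-4.97, SE 0.21; SD, n = 3 each). Adamts10, Adamts14 and Adamtsl1 fell in both populations, with log2 fold changes between -3.08 and -4.43. Adamtsl3, a relative of the ADAMTS proteases without a known enzymatic function, had 0.86, 0.861 and 0 CPM in adipogenic VmSC5, against 57.2, 62.3 and 56.8 CPM in fresh VmSC5 (-6.12, SE 0.61).

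Timp1 ran the other way. It had 352, 326 and 373 CPM in adipogenic VmSC5, against 39.7, 40.9 and 163 CPM in fresh VmSC5, and 402, 421 and 292 CPM in adipogenic VmSC4, against 36.6, 38.2 and 155 CPM in fresh VmSC4. The third fresh library of each population was above the other two, by 1.99 (VmSC5) and 2.03 (VmSC4) on the log2 scale, and still below every adipogenic library (log2 fold change 2.52, SE 0.75, adjusted p = 0.0152 in VmSC5, and 2.81, SE 0.76, adjusted p = 0.00933 in VmSC4). Mmp28 had 11.6, 7.32 and 11.2 CPM in adipogenic VmSC5, against 0, 1.17 and 0 CPM in fresh VmSC5, and rose (5.02, SE 0.84, adjusted p = 6.38e-05), as it did in VmSC4 (5.68, SE 0.81). Mmp15, a membrane-anchored MMP, also rose in both, by 3.57 (SE 0.60) in VmSC5 and by 2.45 (SE 0.61) in VmSC4.

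Lox had 158, 188 and 189 CPM in adipogenic VmSC5 and 131, 161 and 93.1 CPM in fresh VmSC5, and 198, 208 and 171 CPM in adipogenic VmSC4 and 208, 111 and 187 CPM in fresh VmSC4. The CPM ranges overlapped, and the calls (0.90, adjusted p = 0.00321 in VmSC5, and 0.73, adjusted p = 0.011 in VmSC4) rested on the normalisation. TMM normalisation placed the median of all genes 0.43 (VmSC5) and 0.54 (VmSC4) log2 units higher than scaling to library totals, under which Lox stood at 0.47 (adjusted p = 0.0749) in VmSC5 and 0.19 (adjusted p = 0.458) in VmSC4. Mmp19 showed the same split in VmSC4, called higher (0.31, adjusted p = 0.0393) with 75.4 ± 1.52 CPM in adipogenic and 88.5 ± 5.18 CPM in fresh cells (SD, n = 3 each).

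In 3 genes the response to adipogenic culture differed between VmSC5 and VmSC4 by a test of the difference itself (3 of 38, against 2.87% of all genes): Adamts15, Adamts5 and Mmp11. Mmp3 was called in VmSC4 and not in VmSC5. In adipogenic VmSC4 it had 45.1, 62.2 and 34.5 CPM, against 9.59, 6.61 and 14.0 CPM in fresh VmSC4, and rose (2.77, SE 0.60, adjusted p = 0.00255). In adipogenic VmSC5 it had 7.31, 4.73 and 6.95 CPM and in fresh VmSC5 6.08, 24.2 and 35.9 CPM, overlapping ranges that did not pass (-1.39, SE 0.74, adjusted p = 0.123) but were called lower by DESeq2 (adjusted p = 0.0443). The difference between the 2 responses was -4.16 (SE 0.93, adjusted p = 0.0546 with edgeR and 0.000137 with DESeq2). Between the adipogenic groups themselves no gene of the family passed (0 of 38, against 0.34% of all genes). By edgeR, 4 of the 38 had an unadjusted p under 0.05, as did 1040 of all 13221 genes tested. DESeq2 called 1 gene of the family. That 1 was Mmp3, lower in adipogenic VmSC5 than in adipogenic VmSC4 without overlap (edgeR log2 fold change -2.95, SE 0.74, adjusted p = 0.272; DESeq2 adjusted p = 0.00081).

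Around the family, Plau and Plat, the plasminogen activators, fell in VmSC5 (log2 fold changes -5.94 for Plau and -3.17 for Plat) and in VmSC4 (-5.73 and -3.29). Reck, a membrane-anchored inhibitor of MMPs, fell too (-4.68 in VmSC5 and -4.16 in VmSC4), as did Bmp1 (-2.52 and -2.49). All 7 tested adipocyte genes rose and all 6 stromal markers fell in both populations, and the stromal markers summed to 1359.5 to 1426 CPM in adipogenic and 43228 to 44916 CPM in fresh VmSC5, and to 1073 to 1309 CPM in adipogenic and 39259 to 45515 CPM in fresh VmSC4. The part of this shift in the family's fall was not tested.

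Fresh VmSC5 and VmSC4 differed in 17 of 39 tested genes, 14 higher and 3 lower in VmSC5 (43.6% called, against 18.4% of all genes tested). The differences were smaller than those above, with a median log2 fold change of 0.27. Adamts16 (chr13:70727802-70841811, mm10) had the largest, with 2.16, 8.08 and 3.75 CPM in VmSC5, against 0.24, 0.358 and 0 CPM in VmSC4 (4.53, SE 0.64, adjusted p = 0.000171). Adamtsl3 had 57.2, 62.3 and 56.8 CPM in VmSC5, against 13.4, 39.7 and 24.7 CPM in VmSC4, a separation of 1.28 on the log2 scale (SE 0.30, adjusted p = 0.00727). Loxl2 had 127, 103 and 166 CPM in VmSC5, against 42.7, 90.1 and 64.5 CPM in VmSC4 (1.10, SE 0.25, adjusted p = 0.00763). The procollagen N-proteinases Adamts14 and Adamts2 were higher in VmSC5 by 0.81 (SE 0.16) and 0.75 (SE 0.16), Mmp11 by 0.76 (SE 0.12) and Adamts5 by 0.54 (SE 0.11). Mmp14 was higher by 0.61 (SE 0.15, adjusted p = 0.00774) with overlapping ranges.

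Adamts15 was the largest exception above 5 CPM, with 269, 287 and 245 CPM in VmSC5, against 634, 473 and 404 CPM in VmSC4 (-0.83, SE 0.14, adjusted p = 0.00019). Adamts6 and Adamtsl1 were also lower in VmSC5 (-1.07, SE 0.33, and -0.43, SE 0.15). Mmp2 and Timp2, among the most abundant genes of the family, did not pass, Mmp2 at 2565 ± 369 CPM in VmSC5 and 2379.8 ± 216 CPM in VmSC4 (SD, n = 3 each). Without the third library of both populations, in which Timp1 stood apart, 11 genes passed, and Mmp14, Adamtsl3 and Loxl2 no longer did.

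Other measures differed between the fresh populations as well. The 6 endothelial markers summed to 2.58 to 3.72 CPM in VmSC5 and 8.65 to 22.1 CPM in VmSC4, and Emcn and Pecam1 were lower in VmSC5, Pecam1 with a log2 fold change of -2.41 (SE 0.56). The 6 mesothelial markers summed to 52.1 to 71.5 CPM in VmSC5, where 4 of them were at 0, and 89.1 to 121 CPM in VmSC4, and Wt1 was lower in VmSC5 (-0.56, SE 0.14). The mitochondrial share of counts was 0.0722 to 0.167% in VmSC5 and 0.304 to 0.423% in VmSC4. The part of these differences was not tested.

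Cells recovered after transfer had high Mmp2, as fresh cells did, and differed from them in other genes of the family. VmSC4-derived VmSC4 had 16 of 39 tested genes higher and 3 lower than fresh VmSC4 (48.7% called, against 46.1% of all genes), and VmSC5-derived VmSC5 had 14 higher and 6 lower than fresh VmSC5 (51.3%, against 46.4% of all genes). These shares are close to those of all genes. The fresh libraries are the same ones compared in the preceding paragraphs, and the transferred libraries were shallower, at 1967123 to 5044946 counts.

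Adamts16 rose most in VmSC4-derived VmSC4 among the tested genes, with 15.1, 29.0 and 26.0 CPM there, against 0.24, 0.358 and 0 CPM in fresh VmSC4 (6.76, SE 0.57, adjusted p = 1.11e-07). In VmSC5-derived VmSC5 it had 80.2 and 70.3 CPM, against 2.16, 8.08 and 3.75 CPM in fresh VmSC5 (3.95, SE 0.39, adjusted p = 6.36e-07). Mmp9 had 23.7, 32.5 and 25 CPM in VmSC4-derived VmSC4, against 0, 0.268 and 3.42 CPM in fresh VmSC4 (4.45, SE 0.91, adjusted p = 0.00275). It rose in VmSC5-derived VmSC5 as well (5.25, SE 1.17, adjusted p = 0.00434). Lox had 775, 653 and 685 CPM in VmSC4-derived VmSC4, against 208, 111 and 187 CPM in fresh VmSC4 (2.08, SE 0.21, adjusted p = 1.23e-06), and 385 and 441 CPM in VmSC5-derived VmSC5, against 131, 161 and 93.1 CPM in fresh VmSC5 (1.63, SE 0.23, adjusted p = 3.08e-05).

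Adamts6, Adamts4 and Adamts9 rose in both populations, by 3.25 (SE 0.28), 1.65 (SE 0.22) and 1.96 (SE 0.42) in VmSC4-derived VmSC4 and by 2.90 (SE 0.35), 2.08 (SE 0.23) and 2.97 (SE 0.48) in VmSC5-derived VmSC5. Timp3 fell in both, with 70.9, 88.5 and 58.5 CPM in VmSC4-derived VmSC4, against 363, 277 and 343 CPM in fresh VmSC4 (-2.18, SE 0.15, adjusted p = 3.27e-11), and 215 and 209 CPM in VmSC5-derived VmSC5, against 469.8, 499.6 and 354 CPM in fresh VmSC5 (-1.11, SE 0.16, adjusted p = 5.27e-06). In 10 of 39 genes, among them Timp3 and Adamts16, the change after transfer differed between the 2 populations (8.58% of all genes). Adamts5 fell in both (-1.25, SE 0.12, and -0.73, SE 0.13), as did Adamtsl3 (-1.61, SE 0.37, and -1.02, SE 0.35). Timp1 was 192 ± 13.1 CPM in VmSC4-derived VmSC4 and 76.7 ± 68.2 CPM in fresh VmSC4 (SD, n = 3 each), and did not pass (1.34, adjusted p = 0.14), nor did it in VmSC5-derived VmSC5 (1.22, adjusted p = 0.21). Without the third library of both fresh populations it passed in both (2.45 and 2.27). The summed stromal markers were 124805 to 128479 CPM in VmSC4-derived VmSC4 and 39259 to 45515 CPM in fresh VmSC4, and 84876 to 85723 CPM in VmSC5-derived VmSC5 and 43228 to 44916 CPM in fresh VmSC5. Most of the rise was in Col1a1 and Col3a1, at 36160 and 71087 CPM in VmSC4-derived VmSC4, against 2980.5 and 9618 CPM in fresh VmSC4. Dcn was lower in VmSC4-derived VmSC4 (-0.92, SE 0.13) and in VmSC5-derived VmSC5 (-0.79, SE 0.14). Pdgfrb was not called in VmSC5-derived VmSC5 (0.17, SE 0.14). Immediate early genes were higher in transferred cells, Fos by 1.40 (SE 0.42) in VmSC4-derived VmSC4 and by 2.75 (SE 0.46) in VmSC5-derived VmSC5, and Fosb by 2.18 in both. The cytokine gene Il6 was higher by 3.86 (SE 0.28) in VmSC4-derived VmSC4 and by 6.94 (SE 0.37) in VmSC5-derived VmSC5. The mitochondrial share of counts was 0.67 to 1.04% in the transferred libraries and 0.0722 to 0.423% in the fresh libraries. The part of these shifts in the results was not tested.

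VmSC5 cells derived from VmSC4 were set against the 2 populations they connect. Against VmSC4-derived VmSC4, 2 of 39 genes were higher and 1 lower (7.69% called, against 1.77% of all genes). Adamts5 had 515, 509 and 582 CPM in VmSC4-derived VmSC5, against 381, 428 and 409.5 CPM in VmSC4-derived VmSC4 (0.48, SE 0.12, adjusted p = 0.0288). Adamtsl4 was higher (0.73, SE 0.18, adjusted p = 0.0439) and Adamts3 lower (-1.08, SE 0.28, adjusted p = 0.0461), and none of these 3 calls held when any 1 of the 6 libraries was left out. Adamts16 had 58.9, 39.2 and 44.8 CPM in VmSC4-derived VmSC5 and 15.1, 29.0 and 26.0 CPM in VmSC4-derived VmSC4, apart but not past the threshold (1.13, SE 0.34, adjusted p = 0.109; DESeq2 adjusted p = 0.0276).

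Against VmSC5-derived VmSC5, 2 genes were higher and 3 lower (12.8% called, against 1.15% of all genes). Timp3 had 106, 91.0 and 79.6 CPM in VmSC4-derived VmSC5, against 215 and 209 CPM in VmSC5-derived VmSC5 (-1.13, SE 0.16, adjusted p = 0.000183). The call also passed without any 1 of the 5 libraries, although without either VmSC5-derived VmSC5 library the lone one left is assumed to vary like the other groups of the fit. Adamts1 (chr16:85793827-85803113, mm10), a proteoglycanase, had 339, 301 and 288 CPM in VmSC4-derived VmSC5, against 734 and 651 CPM in VmSC5-derived VmSC5 (-1.09, SE 0.23, adjusted p = 0.0331). Adamts5 was lower (-0.58, SE 0.13, adjusted p = 0.0172), and Mmp23 and Adamts6 were higher (0.58, SE 0.12, and 1.19, SE 0.30). Between 1 and 3 of these 5 calls were left when 1 library was removed.

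**Figure D4:**
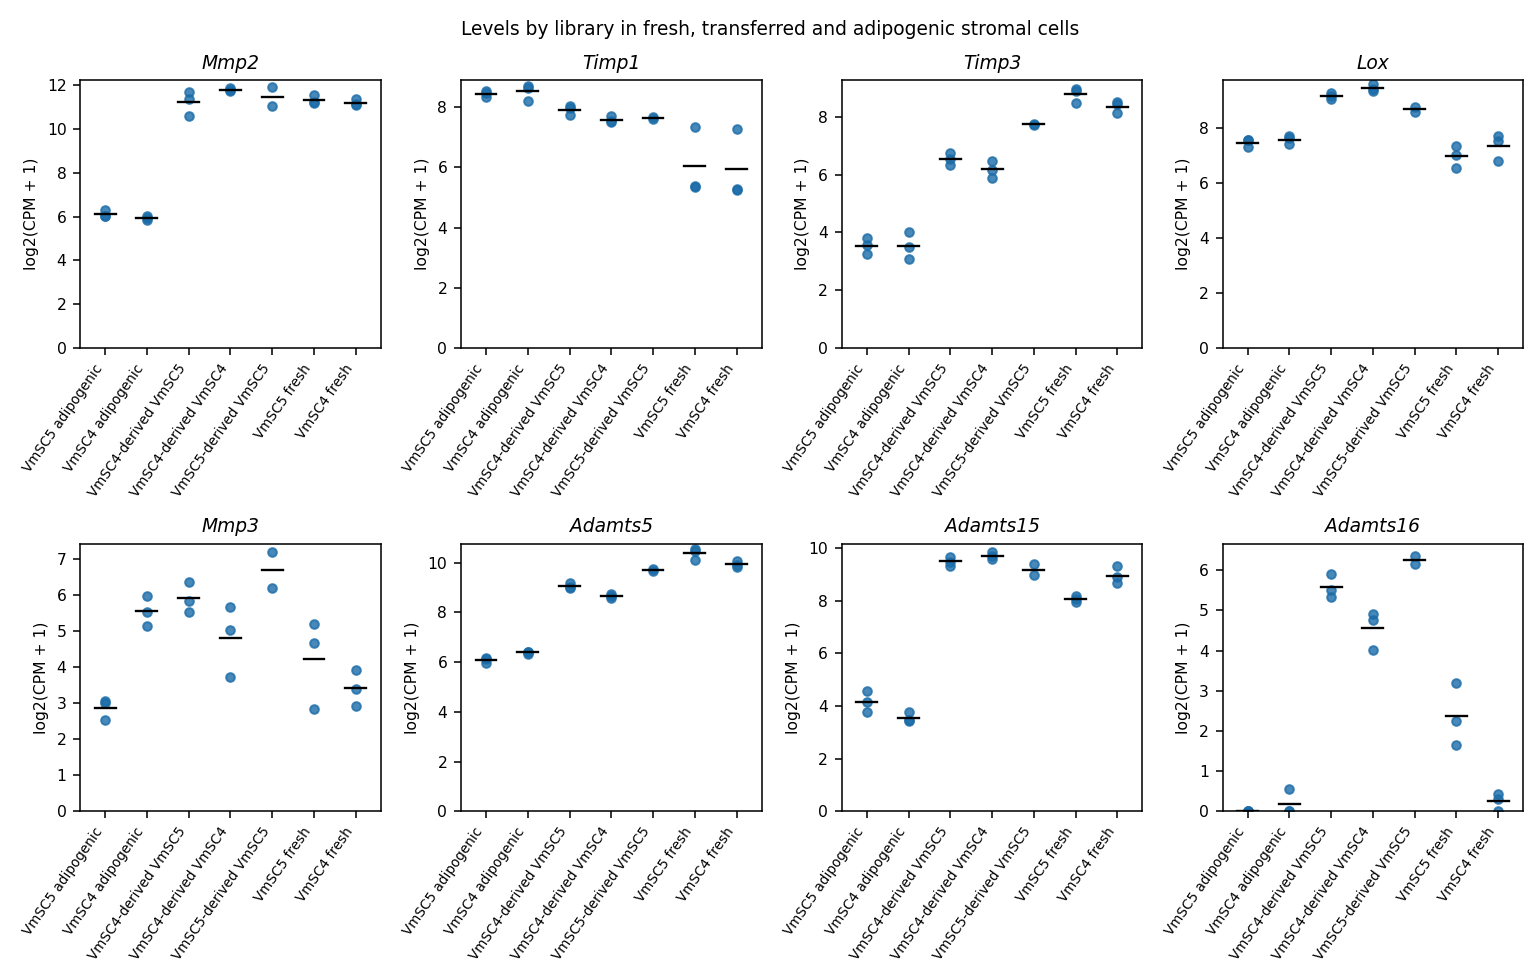
Level, as log2(CPM + 1), of 8 genes in each library of the adipogenic, transferred and fresh stromal groups; points are libraries and bars are group means on that scale. Mmp2, Timp3 and Adamts5 are lowest in both adipogenic groups, Timp1 is highest there, and Adamts16 is highest in transferred cells, at 15.1 to 80.2 CPM.

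Floating adipocytes of toxin-treated DTR+ mice, in which Tregs are the target of the toxin, had lower values of most tested genes than those of DTR- mice, but few passed the test. Of 26 tested genes, 3 were lower and none higher (11.5% called, against 2.43% of all genes). The median log2 fold change was -1.61, against -0.04 over all genes. By edgeR, 15 of the 26 had an unadjusted p under 0.05, as did 1940 of all 11803 genes tested. With 2 libraries per group, the 2 DTR+ libraries also differed much between themselves.

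Timp3 had 13.6 and 0.954 CPM in DTR+ adipocytes, against 107 and 127 CPM in DTR- adipocytes (-3.82, SE 0.80, adjusted p = 0.0135). Adamts5 had 43.4 and 29.3 CPM in DTR+, against 182 and 438 CPM in DTR- (-2.67, SE 0.64, adjusted p = 0.0276). Loxl4 had 0.534 and 0 CPM in DTR+, against 3.54 and 10.1 CPM in DTR- (-4.26, SE 1.11, adjusted p = 0.0453). For these 3 the groups did not overlap, but all calls were lost under scaling to library totals, where the adjusted p was 0.332 for Timp3, 0.268 for Adamts5 and 0.323 for Loxl4. TMM normalisation raised the median of all genes by 0.38 over that scaling. The count of calls was 0 without either DTR- library, 9 without DTR+ replicate 3 and 16 without DTR+ replicate 2.

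Lox had 9.08 and 0.954 CPM in DTR+ and 27.8 and 60.9 CPM in DTR-, just short of the threshold (-2.92, SE 0.78, adjusted p = 0.0528). Timp4, the leading gene of these cells, had 383 and 278 CPM in DTR+ and 675 and 756 CPM in DTR-. Its libraries were also apart, but not beyond the spread that the fit allowed (-0.70, SE 0.60, adjusted p = 0.57). Mmp28 had 24.0 and 15 CPM in DTR+ and 53.3 and 77.9 CPM in DTR- (-1.35, SE 0.60, adjusted p = 0.269). Mmp19 stood at 32.5 ± 7.54 CPM in DTR+ and 39.2 ± 3.37 CPM in DTR-, and Adamts15 at 6.04 ± 4.30 CPM in DTR+ and 6.15 ± 1.31 CPM in DTR- (SD, n = 2 each), with overlapping ranges in both cases.

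Markers of several other cell types of the tissue were lower in the DTR+ libraries as well. The 6 endothelial markers summed to 4.63 to 27.0 CPM in DTR+ and 302 to 417 CPM in DTR- (5 of 6 lower), the 6 stromal markers to 199 to 234 CPM in DTR+ and 601 to 1664 CPM in DTR- (3 of 5 tested lower). The 5 pericyte markers summed to 29.7 to 71.7 CPM in DTR+ and 156 to 224 CPM in DTR-, and the 8 macrophage markers to 25.2 to 57.7 CPM in DTR+ and 135 to 175 CPM in DTR-. None of 7 adipocyte genes passed. The part of these other cells in the lower levels of Timp3, Adamts5 and Loxl4 was not tested.

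**Figure D5:**
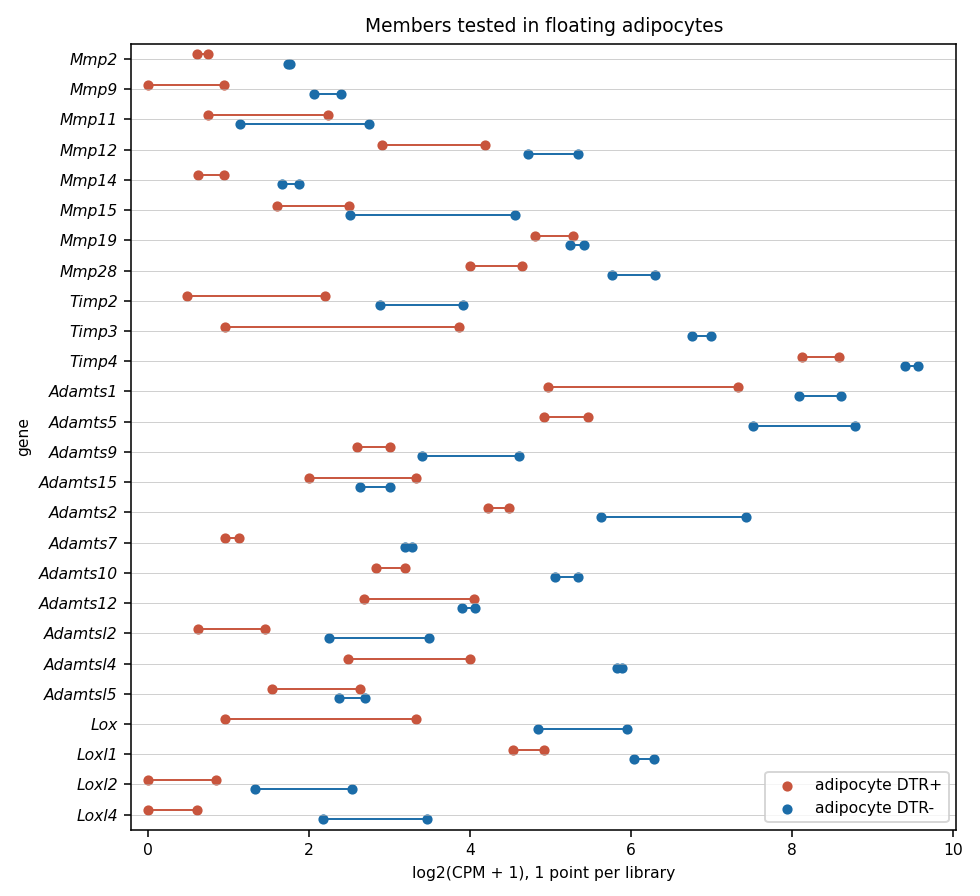
Level, as log2(CPM + 1), of the 26 tested genes in each DTR+ and DTR- floating adipocyte library; points are libraries and a line joins the libraries of a group. Timp4 is highest in all 4 libraries (278 to 756 CPM) and Timp3 shows the widest gap, with 0.954 and 13.6 CPM in DTR+ against 107 and 127 CPM in DTR-.

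Tregs expressed a short list of these genes. None of 10 tested genes passed (0.0526% of all genes passed), and DESeq2 called none. By edgeR, 1 of the 10 had an unadjusted p under 0.05, as did 1158 of all 11416 genes tested. Mmp9 had 284, 439 and 366 CPM in KO Tregs and 263, 278 and 365 CPM in WT Tregs, overlapping ranges (0.31, SE 0.20, adjusted p = 0.65). Adamts10, a fibrillin-associated protease, had 154, 169 and 196 CPM in KO and 222, 184 and 185 CPM in WT (-0.15, SE 0.16, adjusted p = 0.824). The leukocyte membrane-anchored Mmp25 had 68.3, 59.1 and 59.1 CPM in KO and 46.9, 52.4 and 62.5 CPM in WT (0.24, SE 0.22, adjusted p = 0.765).

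Adamts6 had 56.8, 39.1 and 43.9 CPM in KO and 58.4, 75.7 and 73.0 CPM in WT. All KO libraries were below all WT libraries, but the adjusted p was 0.466 (-0.52, SE 0.23). Mmp16 was also apart without passing, at 36.4, 13.9 and 34.3 CPM in KO and 49.3, 39.2 and 51.5 CPM in WT (-0.66, SE 0.32, adjusted p = 0.517). Mmp14 was at 5.74 ± 0.87 CPM in KO and 2.40 ± 1.86 CPM in WT (SD, n = 3 each; 1.25, SE 0.74, adjusted p = 0.616). The 7 T cell markers summed to 3871 to 4942 CPM in KO and 4198 to 4521 CPM in WT.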

How the data were processed

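Per the submitters' processing notes, reads were aligned with STAR 2.7.3a to mm10 and assigned to genes with featureCounts. The annotation, the strand setting and the treatment of multimapping reads are not given in the sources used here. The authors deposited raw read counts per gene for each library, and these counts were used as deposited. Per the labels' protocols, libraries followed an ultra-low-input poly(A) protocol from lysed cells or small amounts of adipocyte RNA, which limits precision for rare transcripts.

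Fresh and transferred stromal cells were fitted together, as were fresh and adipogenic cells and, for the difference of their responses, the OSM and Treg cultures; every other comparison was fitted on its own groups. Whether groups fitted together were prepared at the same time is not given in the sources used here. The fits used edgeR 4.0.16 in R 4.3.3 (filterByExpr with a minimum count of 10, TMM normalisation, robust quasi-likelihood F test). P-values were adjusted by Benjamini-Hochberg over all genes tested, and a gene was called at an adjusted p under 0.05. Standard errors were obtained from each log2 fold change and its F statistic. The p-values measure only the spread between these libraries, which may be technical. CPM (counts-per-million) divides each count by the library total, and CPM per kb divides it by the union exon length of GENCODE M21. Counting intervals cover counting error only, at the 95% level, for genes with 3 counts or fewer over a group. Library totals ran between 1072147 and 12514783 counts.

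The alternatives were RLE size factors, no low-count filter, DESeq2 1.42.0, a replicate block, leaving out each library in turn and, chosen after seeing the data, total-count scaling, a crossed block for the adipocytes and removal of the third fresh library of both populations. The transfer response was added after seeing the data as well. The scripts were tested on simulated data. Genes given full statistics were those called with a mean of at least 5 CPM in a group, up to 12 per comparison by size, and always Timp1, Mmp2, Mmp3, Mmp14, Adamts5 and Lox. Other genes named with values were chosen after their values were seen. The genes and lists were chosen with earlier results of these data known. Some individual genes outside the family are not reported here.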

Additional observations from a re-analysis of the deposited data

Results flagged for a closer look

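In 3 genes the response to adipogenic culture differed between the populations by a test of the difference itself (VmSC5 response minus VmSC4 response, edgeR; 2.87% of all genes passed). Adamts15 fell less in VmSC5, with a log2 difference of 1.48 (SE 0.29, adjusted p = 0.00572). Mmp11 fell in VmSC5 and was not called in VmSC4, with a difference of -0.89 (SE 0.22, adjusted p = 0.0234). Adamts5 fell more in VmSC5, with a difference of -0.86 (SE 0.18, adjusted p = 0.00721). The fresh levels of these 3 genes already differed in the opposite sense, with Adamts15 lower and Mmp11 and Adamts5 higher in fresh VmSC5 than in fresh VmSC4, and the same fresh libraries enter both tests.

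In 10 genes the change after transfer differed between VmSC5-derived VmSC5 and VmSC4-derived VmSC4, each set against its fresh population (VmSC5 response minus VmSC4 response; 8.58% of all genes passed). The VmSC5 response was the more positive for Timp2 (1.09, SE 0.23), Timp3 (1.07, SE 0.21), Adamts1 (1.24, SE 0.31) and Adamtsl4 (1.03, SE 0.26). It was the more negative for Adamts16 (-2.81, SE 0.81), Adamts3 (-1.71, SE 0.42), Adamts7 (-1.37, SE 0.30), Adamts10 (-1.2, SE 0.19), Adamts2 (-0.95, SE 0.24) and Mmp11 (-0.91, SE 0.19). Timp3, for example, stood at 212 ± 4.38 CPM in VmSC5-derived VmSC5 (SD, n = 2) and 441 ± 77.0 CPM in fresh VmSC5 (SD, n = 3), and at 72.6 ± 15.1 CPM in VmSC4-derived VmSC4 and 328 ± 44.7 CPM in fresh VmSC4 (SD, n = 3 each). With 2 libraries of VmSC5-derived VmSC5, the count of genes passing was 4 without the first of them, and 14 without the first fresh VmSC5 library.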

How the results depend on the processing

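Across 15 comparisons, no called direction reversed under any alternative run. For genes named by the rule, 2206 values kept their direction and side of the threshold, 105 no longer passed and 32 newly passed. Counts of genes called moved over 1.5 times as follows. Fresh VmSC5 against VmSC4 gave 11 without the third library of both, against 17. VmSC4-derived VmSC5 against VmSC4-derived VmSC4 (3) gave 6 with no low-count filter and 1 with total-count scaling. Against VmSC5-derived VmSC5 (5) it gave 12 with no low-count filter and 3 with the replicate block. Adipogenic VmSC5 against VmSC4 (0) gave 1 with DESeq2. The difference in culture response (3) gave 7 with no filter and 5 with DESeq2. DTR+ against DTR- adipocytes (3) gave 0 with total-count scaling, 1 with the replicate block, 10 with the crossed block and 5 with DESeq2. The cause was not tested.

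Leaving out 1 library gave 12 to 16 calls for fresh VmSC5 against VmSC4, 0 to 0 and 1 to 3 for VmSC4-derived VmSC5 against VmSC4-derived VmSC4 and VmSC5-derived VmSC5, 2 to 5 for the culture response, 4 to 14 for the transfer response, 0 to 16 for DTR+ against DTR-, 24 to 27 for OSM and 23 to 28 for Treg.

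By correlation over all genes, replicate numbers gave no clear sign of pairing, since no comparison had a correlation of same-numbered libraries over 0.1 in every pair. The third fresh libraries of both populations did shift together in a few genes. There, 8 genes were over 2-fold higher in both, 2 were lower in both and 1 moved in opposite directions. Whether same-numbered fresh libraries share a preparation was not tested. In the adipocytes the correlation of same-numbered libraries was -0.394, and 0.394 for differently numbered libraries. With 2 libraries per group these values mirror each other, so they cannot decide whether the numbers pair. With the block, the other comparisons kept counts within 1.5 times, such as 26 for OSM and 26 for Treg. The block made Timp1 pass after transfer (1.70, adjusted p = 0.0298 in VmSC4-derived VmSC4, and 1.89, adjusted p = 0.0303 in VmSC5-derived VmSC5). Depth limits genes below about 5 CPM, above all in the OSM cultures and KO Tregs.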

Other observations

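Mmp2 and Loxl1 were low together in 3 libraries, 2 of transferred cells and 1 of the Treg cultures. These libraries were the third VmSC4-derived VmSC5 library, the first VmSC5-derived VmSC5 library and the third library with Treg. VmSC5-derived VmSC5 has 2 libraries in all, so its first library was set against a single other one. Relative to the other libraries of each group, Mmp2 stood at -0.94, -0.89 and -0.97 and Loxl1 at -1.18, -0.88 and -1.18 on the log2 scale, in that order of libraries. Of 2323 genes at 50 CPM or more, 13 were below -0.7 in all 3 libraries and 0 were above 0.7. Beside Mmp2 and Loxl1 they included Ogfr, Hspa4, Xbp1, Naglu, P3h1, Errfi1, Mtarc2, Phb2, Mrfap1 and Stub1. P3h1 encodes a collagen prolyl hydroxylase, and most of the others named are not matrix genes. The pattern was noticed in the same data and has no test.

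The third fresh library stood apart in Timp1 in both populations. Of 7775 genes reaching 20 CPM in a fresh library, 8 were over 2-fold higher in the third library of both populations than in the other two, 2 were over 2-fold lower and 1 moved in opposite directions. The 8 were Timp1, Ltbp2, Acta2, Iqcn, Notch3, Ccn1, Egr1 and Cyp4b1, and the 2 lower were Strip2 and Slc38a5. Timp1 was higher by 1.99 in VmSC5 and by 2.03 in VmSC4 on the log2 scale.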
